A study of Mus musculus with 2 samples.

Results

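Forkhead transcription factors share a winged-helix DNA-binding domain and are named by a letter for the subfamily and a number. The genes described here are the 43 protein-coding mouse genes of GENCODE M21 whose symbol is Fox, a letter from a to s and a number, among 21755 protein-coding genes on chromosomes 1 to 19 and X. The rule that picks them uses the symbol and no measured value. The 10 genes of the Foxo, Foxk and Foxp subfamilies were set beside the other 33, most of which are textbook regulators of single lineages.

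Open chromatin was measured by DNase-seq, in which the nuclease DNase I cuts exposed DNA, so that cuts pile up where chromatin is accessible. The tissue was adrenal gland, taken at 4 days of age from females of B6CASTF1/J, hybrids of a C57BL/6J and a CAST/EiJ parent. There were 2 libraries, labelled biological replicates 1 and 2 of 1 group, so no groups were compared and no test was made. The labels speak of 3 females for each library but give the libraries 1 common donor, so the spread between them may be technical. Open chromatin in a whole gland does not say which cells carry it, and it is not a measure of transcription.

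Forkhead factors bind sequences around the core TGTTTAC, and FoxA proteins are known for opening compact chromatin in endoderm. FoxO proteins are held out of the nucleus when insulin or growth factor signals activate AKT, and enter it to switch on genes of cell cycle arrest, antioxidant defence and metabolism. FoxK proteins recruit the SIN3 and BAP1 complexes. FoxP proteins form dimers and mostly repress. Other members direct 1 lineage or organ each, such as FOXJ1 in cells with motile cilia, FOXN1 in thymic epithelium and FOXL2 in the ovary.

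A gene was counted as open when a peak of the longer deposited list lay within 1 kb of one of its annotated transcription start sites (TSSs) in both libraries. By this count 24 of the 43 forkhead genes, 55.8%, were open, against 61.3% of all protein-coding genes. All 10 Foxo, Foxk and Foxp genes were open, and 14 of the other 33 were, or 42.4%. Taking replicate 1 by itself, 15 of those 33 had a TSS peak, 45.5% against 62.2% of all protein-coding genes, and taking replicate 2 by itself 22 did, 66.7% against 66.3%. The family as a whole was thus near the background, and the lower share among the other forkhead genes was seen in replicate 1 and in the count over both libraries, but not in replicate 2 by itself.

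Upstream sequences of 3 members are shown as examples of promoter letters. Foxk1 had an open promoter, while Foxb1 and Foxn1 had no TSS peak in either library. Each run is the 150 bases before the 5′ end of the gene on GRCm38.p6 (mm10), read 5′ to 3′ on the gene's strand, with each CG dinucleotide in capitals.
Foxk1 upstream (chr5:142401347-142401496, plus strand): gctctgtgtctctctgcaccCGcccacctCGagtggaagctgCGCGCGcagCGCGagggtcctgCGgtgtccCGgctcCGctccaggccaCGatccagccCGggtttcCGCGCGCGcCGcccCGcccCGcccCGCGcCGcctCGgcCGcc
Foxb1 upstream (chr9:69760941-69761090, minus strand): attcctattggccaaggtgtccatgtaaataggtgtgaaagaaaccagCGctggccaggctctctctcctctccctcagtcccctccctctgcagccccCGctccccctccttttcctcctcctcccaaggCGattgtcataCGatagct
Foxn1 upstream (chr11:78386559-78386708, minus strand): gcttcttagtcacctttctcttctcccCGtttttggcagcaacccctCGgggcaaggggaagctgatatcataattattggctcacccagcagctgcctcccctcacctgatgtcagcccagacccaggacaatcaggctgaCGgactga
The Foxk1 run holds 24 CG dinucleotides, the Foxb1 run 4 and the Foxn1 run 3. Over the 1 kb around the 5′ end the observed over expected CpG ratio was 0.996 at Foxk1, 0.718 at Foxb1 and 0.180 at Foxn1. Foxb1 is thus CpG-rich over the longer window.

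The next runs are accessible regions of members where the deposited lists report footprints, short stretches inside a peak where cuts are depleted as if a protein covered the DNA. Capitals mark bases inside a footprint of either library. The first 3 hold the strongest TSS peaks among the 24 open members, and the Foxs1 peak is shown because replicate 2 had it and replicate 1 did not. The last 2 are the strongest distal peaks of Foxc2 and Foxk1. For Foxj1 only the 141 bases outside exons are printed.
Foxn3 intronic TSS peak (chr12:99392041-99392220, minus strand): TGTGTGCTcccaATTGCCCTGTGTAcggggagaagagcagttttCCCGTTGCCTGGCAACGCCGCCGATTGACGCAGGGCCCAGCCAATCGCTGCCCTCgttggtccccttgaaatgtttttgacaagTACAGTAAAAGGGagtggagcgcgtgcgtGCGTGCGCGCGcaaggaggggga
Foxo6 TSS peak (chr4:120287801-120288040, minus strand): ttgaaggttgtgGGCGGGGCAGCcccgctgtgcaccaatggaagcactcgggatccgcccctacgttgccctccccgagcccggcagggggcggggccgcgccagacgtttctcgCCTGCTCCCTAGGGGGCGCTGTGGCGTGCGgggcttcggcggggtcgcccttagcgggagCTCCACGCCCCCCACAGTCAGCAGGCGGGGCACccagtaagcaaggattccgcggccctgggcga
Foxj1 TSS peak (chr11:116335400-116335540, minus strand): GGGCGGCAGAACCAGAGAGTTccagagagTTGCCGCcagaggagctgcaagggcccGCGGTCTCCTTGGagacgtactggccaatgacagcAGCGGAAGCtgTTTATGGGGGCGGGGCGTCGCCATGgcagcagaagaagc
Foxs1 TSS peak (chr2:152933741-152933920, minus strand): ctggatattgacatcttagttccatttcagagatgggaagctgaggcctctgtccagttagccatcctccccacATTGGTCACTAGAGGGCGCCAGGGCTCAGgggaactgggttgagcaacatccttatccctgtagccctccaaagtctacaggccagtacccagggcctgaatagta
Foxc2 distal peak (chr8:121113401-121113620, plus strand): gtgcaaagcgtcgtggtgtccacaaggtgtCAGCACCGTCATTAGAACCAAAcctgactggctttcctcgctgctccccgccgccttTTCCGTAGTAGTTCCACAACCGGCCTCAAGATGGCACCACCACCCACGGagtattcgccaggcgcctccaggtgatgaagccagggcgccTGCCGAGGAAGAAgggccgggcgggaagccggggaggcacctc
Foxk1 distal peak (chr5:142367341-142367580, plus strand): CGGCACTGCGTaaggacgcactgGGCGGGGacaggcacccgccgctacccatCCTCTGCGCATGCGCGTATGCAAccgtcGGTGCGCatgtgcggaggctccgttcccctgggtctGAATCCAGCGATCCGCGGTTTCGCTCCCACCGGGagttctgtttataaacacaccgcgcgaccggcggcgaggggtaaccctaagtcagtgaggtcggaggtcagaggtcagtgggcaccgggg

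The strongest TSS peak of each open member is given below as the authors' deposited signal. The sources used here do not say how it was scaled. Signal runs higher in replicate 2, so the percentile of a peak is taken within its library. The reference is the strongest TSS peak of each protein-coding gene with one in that library, 13535 genes in replicate 1 and 14433 in replicate 2. Replicate 1 had 46031 peaks in its longer list and replicate 2 had 87387, so values are compared between genes within a library.

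Among the FoxO genes, Foxo6 stood highest, at 4.40 in replicate 1 and 11.4 in replicate 2, at the 96.4th and 98.1st percentiles. FOXO6 is the family member best known from the brain, where it acts in memory circuits. Foxo1, the FoxO gene that controls gluconeogenesis in liver, had 3.40 in replicate 1 and 4.23 in replicate 2. Foxo3, which restrains oocyte activation and protects cells from oxidative damage, had 3.18 in replicate 1 and 5.01 in replicate 2. These 3 genes lay above the middle of the distribution in both libraries, Foxo1 at the 84.7th and 52.4th percentiles and Foxo3 at the 80.4th and 61.9th. The Foxo3 peak was at the edge of the window, centred 1016 bp before the 5′ end in replicate 1 and 1046 bp in replicate 2. The peak at the Foxo3 5′ end itself had 1.83 in replicate 1 and 2.99 in replicate 2, below the middle in both libraries. Foxo4, the X-linked FoxO gene, was lower, with 1.26 in replicate 1 and 2.16 in replicate 2. Its percentiles of 25.5 and 26.4 put it in the lower part of the distribution in both libraries.

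The FoxK genes, whose proteins promote glycolysis and restrain autophagy genes, were both open. Foxk1 had 3.50 in replicate 1 and 7.27 in replicate 2, at the 86.1st and 83.0th percentiles. Foxk2 had 2.48 in replicate 1 and 4.92 in replicate 2, at the 62.0th and 60.8th percentiles. Foxk1 stood above Foxk2 in each library.

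The FoxP genes were open with low peak signals. Foxp4, which acts with Foxp1 in lung epithelium, had 1.42 in replicate 1 and 2.83 in replicate 2. Foxp1, a regulator of heart, lung and lymphocyte development, had 1.28 in replicate 1 and 2.45 in replicate 2. Foxp2, known from speech circuits in the brain, had 0.768 in replicate 1 and 1.36 in replicate 2, the lowest of the 10 Foxo, Foxk and Foxp genes in both libraries. Foxp3, the lineage factor of regulatory T cells, had 1.65 in replicate 1 and 3.30 in replicate 2. That Foxp3 peak lay in an intron, near TSSs of the noncoding gene Flicr and of the protein-coding neighbour Ppp1r3f, so it cannot be assigned to Foxp3 alone. Of 4 leukocyte markers, 1 was open in both libraries, Ptprc at 0.367 in replicate 1 and 0.405 in replicate 2. Spi1 had 0.836 in replicate 1 alone, and Adgre1 and the T cell marker Cd3e had no TSS peak. The part of leukocytes in the Foxp3 peak was not tested. The 4 FoxP genes lay between the 10.2nd and 40.7th percentiles in both libraries.

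**Figure D1:**
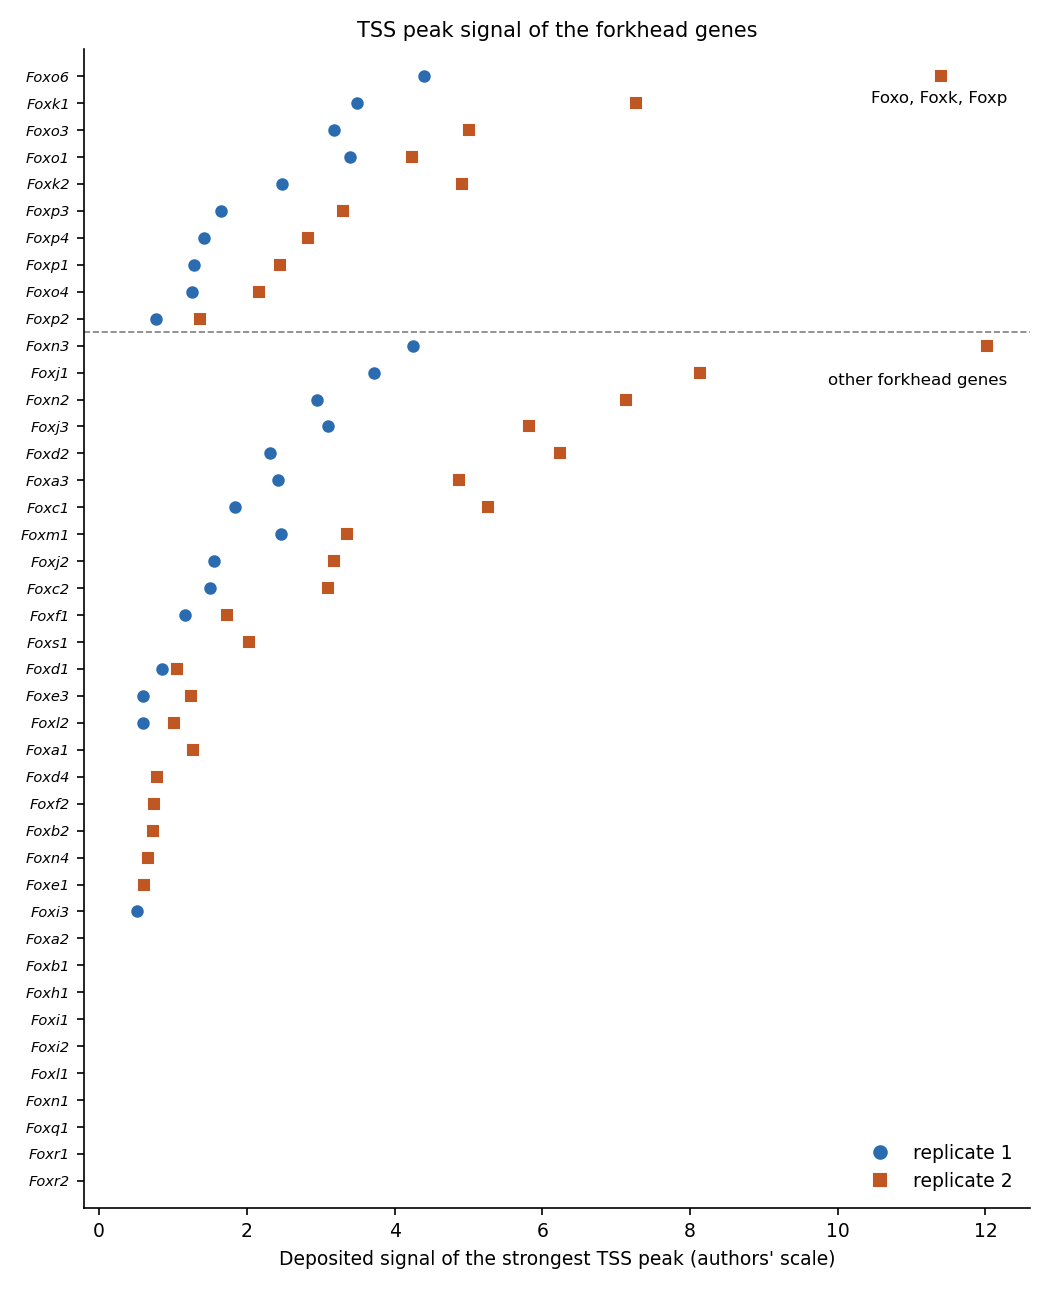
Deposited signal (horizontal axis, the authors' scale, linear) of the strongest peak within 1 kb of a TSS for 42 of the 43 forkhead genes, in replicate 1 (circles) and replicate 2 (squares); a gene with no symbol in a library had no peak there. All 10 Foxo, Foxk and Foxp genes above the dashed line have both symbols, while 14 of the other forkhead genes below it do.

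The other 14 open genes included several that the textbook also describes as broadly used. Foxn3, a repressor linked to cell cycle checkpoints, had 4.26 in replicate 1 and 12.0 in replicate 2, at the 95.6th and 98.6th percentiles. Foxn2, its relative, had 2.95 in replicate 1 and 7.13 in replicate 2. Foxj3, which regulates muscle fibre genes, had 3.10 in replicate 1 and 5.82 in replicate 2, and Foxj2 had 1.55 in replicate 1 and 3.18 in replicate 2. These genes spanned the distribution, with Foxn3 near the top and Foxj2 at the 34.1st and 39.2nd percentiles. The Foxj3 peak lay in an intron, centred 190 bp from an annotated TSS of Foxj3 in replicate 1 and 120 bp in replicate 2. It was also within 1 kb of a TSS of the neighbouring gene Frg2f1, and no peak lay within 1 kb of the 5′ end of Foxj3. Foxm1, which drives genes of mitosis in dividing cells, had 2.46 in replicate 1 and 3.35 in replicate 2, at a start region it shares with Rhno1. The genes were also grouped by textbook breadth, with Foxj2, Foxj3, Foxm1, Foxn2 and Foxn3 in the broad group and Foxo6, Foxp2 and Foxp3 outside it. By this grouping 12 of 12 broad genes were open and 12 of the remaining 31 were. Counting the 5′ end alone, 11 of the 12 broad genes were open. The grouping was made with earlier results of these data known, so it is a description.

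Outside Foxo, Foxk and Foxp, Foxj1 was the strongest of the genes with a single-lineage textbook role. The signal at Foxj1, the master regulator of motile cilia, was 3.72 in replicate 1 and 8.14 in replicate 2, at the 89.8th and 88.5th percentiles. Its peak was centred 62 bp before the 5′ end in both libraries and lay at no other gene's TSS. The printed peak shows 9 CG dinucleotides and separate footprinted stretches on both sides of its middle.

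Mesenchymal and endodermal forkhead genes ranged widely, with Foxd2 at the 57.2nd percentile in replicate 1 and the 75.4th in replicate 2, and Foxd1 at the 12.9th in replicate 1. Foxd2, a gene of kidney mesenchyme, had 2.32 in replicate 1 and 6.25 in replicate 2, next to its antisense neighbour Foxd2os. Foxa3, a FoxA gene of liver and gut, had 2.42 in replicate 1 and 4.87 in replicate 2, but its peak was within 1 kb of a TSS of Sympk. Foxc1, which acts in mesenchyme, vessels and eye, had 1.84 in replicate 1 and 5.27 in replicate 2. Its paralogue Foxc2, a regulator of lymphatic vessels, was lower in both libraries, with 1.50 in replicate 1 and 3.10 in replicate 2. Foxf1, required in the mesenchyme of lung and gut, had 1.17 in replicate 1 and 1.73 in replicate 2, near the 5′ ends of the noncoding genes Fendrr and Gm27530. Foxd1, a marker of kidney stroma, had 0.853 in replicate 1 and 1.06 in replicate 2. The order Foxc1, Foxc2, Foxf1, Foxd1 was the same in both libraries. Of the 4 capsule and stroma markers, 3 were open in both libraries, and of the 4 endothelial markers 3 were.

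The calls at Foxl2 and Foxe3 were weak. Foxl2, the ovarian granulosa factor, had 0.597 in replicate 1 and 1.02 in replicate 2. Foxe3, a lens gene, had 0.588 in replicate 1 and 1.24 in replicate 2. At both genes the peaks of the 2 libraries did not overlap each other, and none was in the shorter, stricter lists. With the shorter lists, 22 of 43 forkhead genes were open against 54.8% of all protein-coding genes, with all 10 Foxo, Foxk and Foxp genes and 12 of the other 33. Counting the 5′ end of each gene alone, 23 were open against 56.8%, and Foxj3 was the gene lost.

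A further 8 members had a TSS peak in replicate 2 and none in replicate 1, against 5.00% of all protein-coding genes with that pattern. None was a Foxo, Foxk or Foxp gene, and they included Foxa1, Foxb2, Foxd4, Foxe1, Foxf2, Foxn4 and Foxs1. Foxs1, a gene of vessel-associated mural cells, had the highest signal, 2.02, with a peak 623 bp before its 5′ end. Only 40 genes, 3.68% of those with a TSS peak in replicate 2 alone, had a signal at or above it. Foxa1, an endoderm factor, had 1.28, from an intronic peak at an internal TSS. The signal was 0.783 at Foxd4, 0.748 at Foxf2, 0.730 at Foxb2, 0.669 at Foxn4 and 0.607 at Foxe1. The median of the 8 was 0.739, against 0.809 over all 1087 genes of this kind, so these peaks were among the weak ones of the library with more peaks. Of the 8, 3 were in the stricter list of replicate 2 (37.5%, against 30.5% of the 1087).

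Foxi3, a gene of ectodermal placodes, was the 1 member with a peak in replicate 1 alone, at 0.512, a pattern found in 0.869% of all protein-coding genes. No TSS peak was found in either library at 10 members, against 32.8% of all protein-coding genes. They were Foxa2, Foxb1, Foxh1, Foxi1, Foxi2, Foxl1, Foxn1, Foxq1, Foxr1 and Foxr2. This set holds the endoderm gene Foxa2, the Nodal pathway partner Foxh1, the inner ear and kidney gene Foxi1, the gut mesenchyme gene Foxl1 and the thymus gene Foxn1.

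The deposited false discovery rates (FDRs) of the local cut rate, listed only below 0.05, gave a second look at members without a peak. Within 1 kb of any TSS, 0 of 18 members without a TSS peak in replicate 1 had a listed position, and 0 of 11 had one in replicate 2. Over all protein-coding genes without a TSS peak, 2.85% in replicate 1 and 3.31% in replicate 2 had one. With so few genes, the counts of 0 are near these shares and give no result about the closed forkhead genes. The sources used here do not give the depth behind these lists.

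Promoter CpG content was taken from the reference as the observed over expected CpG ratio in 1 kb centred on the 5′ end. CpG-rich promoters are known to be open in most tissues. Its median was 0.895 for the Foxo, Foxk and Foxp genes and 0.686 for the other forkhead genes, with 0.759 for the whole family and 0.558 for all protein-coding genes. Forkhead promoters were therefore richer in CpG than the typical gene in both subsets, and richest in the Foxo, Foxk and Foxp genes.

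The counts are given next by class of CpG ratio. At a ratio of 0.8 and over, 8 of 8 Foxo, Foxk and Foxp genes and 7 of 9 other forkhead genes were open, against 96.6% of all protein-coding genes. The exceptions were Foxf2 and Foxi3. From 0.6 to 0.8, 2 of 2 Foxo, Foxk and Foxp genes and 5 of 11 other forkhead genes were open, against 92.0%. The 6 not counted as open there were Foxb1, Foxl1 and Foxr1, with no TSS peak in either library, and Foxb2, Foxe1 and Foxn4, with one in replicate 2 alone. From 0.4 to 0.6, 1 of 6 forkhead genes, Foxa3, was open against 72.1%, and under 0.4, 1 of 7, Foxj3, against 19.4%. The Foxj3 peak lay 2.47 kb from its 5′ end in replicate 1 and 2.54 kb in replicate 2. Its CpG ratio therefore does not describe the open site. Over all genes with a ratio of at least 0.6, 10 of 10 Foxo, Foxk and Foxp genes and 12 of 20 other forkhead genes (60.0%) were open, against 94.0% of all protein-coding genes. Taking replicate 1 by itself, 65.0% of those 20 had a TSS peak, against 94.6%, and in replicate 2 by itself 80.0% did, against 96.4%. At this CpG content the share outside Foxo, Foxk and Foxp was thus lower than that of all protein-coding genes in each library. Genes are not replicates, and no test was made.

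**Figure D2:**
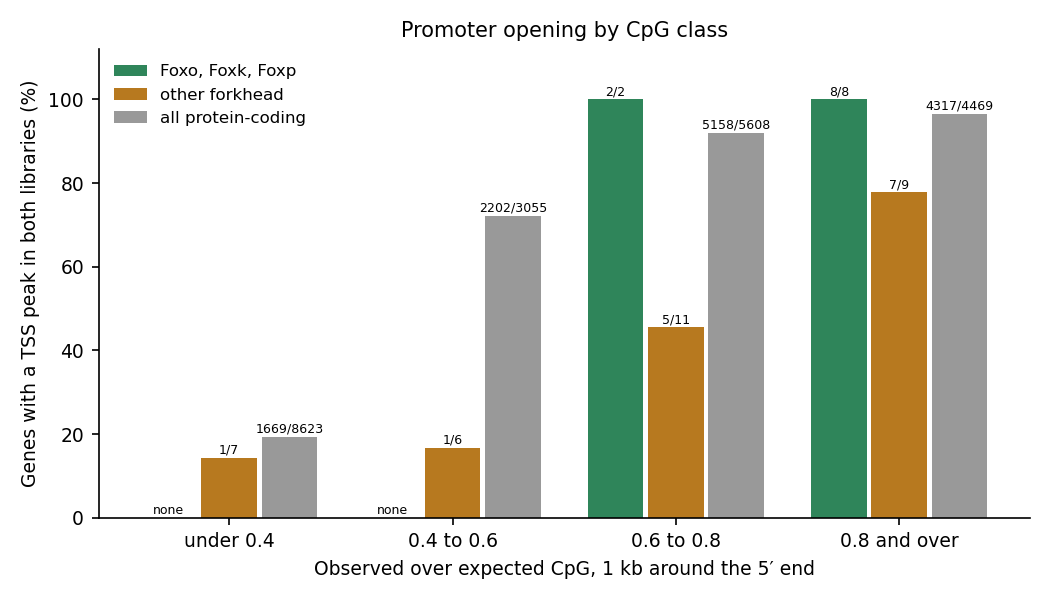
Share of genes with a TSS peak in both libraries (vertical axis, percent) by the observed over expected CpG ratio of the promoter, for Foxo, Foxk and Foxp genes, other forkhead genes and all protein-coding genes; numbers above bars are open genes over genes, and "none" marks a class with no gene. From 0.6 to 0.8, 5 of 11 other forkhead genes were open, against 92.0% of all protein-coding genes.

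Peak height and breadth of opening separated the open members. Breadth was measured as the share of positions within 1 kb of the 5′ end that had an FDR below 0.05. Among genes open at the 5′ end, its median was 65.7% in replicate 1 and 59.1% in replicate 2 for Foxo, Foxk and Foxp genes. For the other forkhead genes it was 31.6% and 33.5%, and for all protein-coding genes 34.7% and 38.8%.

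Foxp1 and Foxp4 combined broad windows with low peaks. Foxp1 was open over 86.8% of the window in replicate 1 and 91.8% in replicate 2, at the 98.7th and 98.9th percentiles for breadth. Its peak signal was at the 25.9th and 30.2nd percentiles. Foxp4 was open over 80.2% in replicate 1 and 76.0% in replicate 2, with a peak signal at the 30.2nd and 35.0th percentiles. At Foxp1 several adjoining weak peaks filled the window. Foxo1 and Foxo3 were as broad, with 86.3% and 85.3% in replicate 1 and 78.7% and 89.9% in replicate 2, but with higher peaks. Foxn2 was the broadest of the other open forkhead genes, at 74.3% in replicate 1 and 71.8% in replicate 2.

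Foxo6 and Foxj1 showed the opposite shape. Foxo6, with the tallest 5′ peak of the family, was open over 30.6% of the window in replicate 1 and 41.8% in replicate 2. Foxj1 was open over 31.6% in replicate 1 and 31.0% in replicate 2. Both lay near or below the median breadth of all protein-coding genes, so tall and broad opening did not go together in these members.

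**Figure D3:**
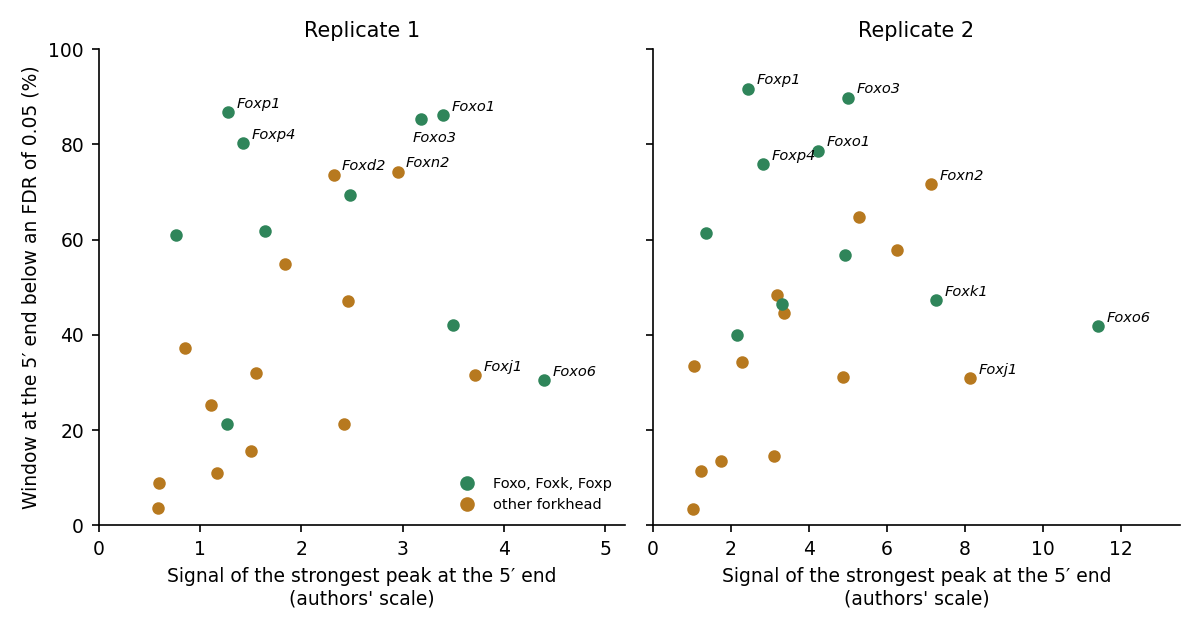
Share of the window within 1 kb of the 5′ end at an FDR below 0.05 (vertical axis, percent) against the deposited signal of the strongest peak there (horizontal axis, the authors' scale), for forkhead genes with a peak at the 5′ end in both libraries. Foxp1 and Foxp4 lie at the top left, with at least 76.0% of the window open and low peaks, while Foxo6 lies at the right with 30.6% in replicate 1 and 41.8% in replicate 2.

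Foxn3 is a large gene with 14 annotated TSSs, and its strongest peak was not at its 5′ end. The peak of 4.26 in replicate 1 and 12.0 in replicate 2 lay in an intron 171 kb inside the gene, 941 bp from the nearest annotated TSS in replicate 2. At the 5′ end itself the signal was 1.11 in replicate 1 and 2.27 in replicate 2. With a window of 500 bp the tall peak was not counted, and the mean of the libraries was 2.96 instead of 8.14, so its assignment to a TSS rests on the 1 kb window.

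The printed Foxn3 peak contains a palindrome-like stretch of the kind bound by RFX factors. The letters GTTGCCNGGCAAC, an RFX inverted repeat, were searched on both strands in the 200 bp around the centre of the strongest TSS peak of each gene in replicate 2. They occurred in 1 of 32 forkhead genes, Foxn3, and in 6 of 14433 protein-coding genes (0.0416%). All 13 bases of the match lay inside a footprint in both libraries. RFX factors are best known for ciliary genes and for class II antigen presentation. This motif and the CTCF, YY1 and NRF1 letters below were chosen after the printed sequences had been seen, so the matches are descriptions, not sites.

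Letters of the CTCF core, AGNGGGCGC, lay in the Foxo6 and Foxs1 peaks. CTCF is the zinc finger protein that anchors chromatin loops. In Foxo6 all 9 letters were inside a footprint in both libraries, and in Foxs1 all 9 were inside a footprint in replicate 2. Among strongest TSS peaks of replicate 2, 4 of 32 forkhead genes held these letters (Foxc2, Foxd2, Foxo6 and Foxs1), or 12.5%, against 5.56% of all protein-coding genes. In shared distal peaks the share was 7 of 86, or 8.14%, against 9.57%.

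The forkhead core was counted in the same windows, and its few matches gave no result about these genes. TGTTTAC on either strand was in 1 of 32 forkhead genes at the strongest TSS peak (Foxo4) against 1.21% of all protein-coding genes. It was in 0 of 86 distal peaks of forkhead genes against 2.10% of all shared distal peaks. The RefSeq promoter table of the same build, with 250 bases before and 50 after each start, held 32 promoters of 27 members. Of these, 1 held the core, that of Foxa1, against 2.97% of all promoters in the table. The GC box GGGCGG, bound by SP factors, was in 24 of 32 strongest TSS peaks of forkhead genes, against 62.0% of all protein-coding genes. Footprints were somewhat sparser in the TSS peaks of open forkhead genes, at 6.52 per kb in replicate 1 and 8.50 in replicate 2, against 9.31 and 9.73 for all open protein-coding genes. The density was thus lower for forkhead genes in both libraries. Overlapping peaks of 1 library were each counted at full length. Open forkhead genes also had more peak length per gene, with medians of 936.5 bp against 400 bp in replicate 1 and 614.5 bp against 423 bp in replicate 2. This length was summed over the windows of all annotated TSSs of a gene. Among open genes with 1 TSS the medians were 300 bp against 324.5 bp in replicate 1 and 432 bp against 363.5 bp in replicate 2. For these genes the excess was thus not seen in replicate 1. The part of peak length in the lower density was not tested.

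Distal peaks were those shared by both libraries and centred over 1 kb from any annotated TSS, each assigned to the protein-coding gene whose TSS was closest. Forkhead genes had 86 of 17071, a mean of 2.00 per gene against 0.785 over all protein-coding genes. The mean was 3.00 for Foxo, Foxk and Foxp genes, with 30 peaks, and 1.70 for the other forkhead genes, with 56. At least 1 such peak was found at 29 of 43 forkhead genes, 67.4%, against 38.5% of all protein-coding genes. At least 3 were found at 12, or 27.9%, against 9.32%.

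Forkhead genes also sit in emptier stretches of the genome. The median territory, the sequence nearer to a gene's TSSs than to those of any other protein-coding gene, was 91.7 kb for forkhead genes and 44.5 kb for all protein-coding genes. Per Mb of territory there were 10.6 distal peaks for forkhead genes against 6.65, so the excess was smaller per length than per gene. The median territory was 168.6 kb for Foxo, Foxk and Foxp genes and 87.5 kb for the other forkhead genes. Per Mb these subsets had 10.2 and 10.9 distal peaks, so their difference per gene was not seen per length. The 86 peaks of the family were not strong ones. Their median signal was at the 46.2nd percentile of shared distal peaks in replicate 1 and the 37.9th in replicate 2.

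Foxo1 and Foxc1 had 8 distal peaks each. Some of those at Foxc1 lay within the gene, in its coding exon and 3′ untranslated region, while those at Foxo1 lay outside the gene. The strongest at Foxo1, 71.8 kb from the nearest TSS at chr3:52196421-52196580, had 1.17 in replicate 1 and 3.75 in replicate 2. The strongest at Foxc1, 5.26 kb upstream at chr13:31801281-31801460, had 2.05 in replicate 1 and 5.41 in replicate 2. Foxo1 also had one 5.73 kb upstream, with 0.989 in replicate 1 and 3.51 in replicate 2. At that short range the Foxc1 peak was the higher in both libraries. Foxn2 and Foxn3 had 6 each, Foxa2, Foxl1, Foxo3, Foxo6 and Foxp4 had 5, Foxe1 had 4, and Foxk1 and Foxn1 had 3. At Foxo3 and Foxp2, 3 of the 86 peaks also reached into the TSS window and were counted in both places.

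Several genes not counted as open had distal peaks nearby. Foxe1, the thyroid factor with a weak TSS peak in replicate 2 alone, had one 38.7 kb upstream at chr4:46304821-46304980, with 1.79 in replicate 1 and 5.78 in replicate 2. Foxn1 had one 13.3 kb upstream at chr11:78399781-78399960, with 1.22 in replicate 1 and 4.77 in replicate 2. Foxa2 had one 1.69 kb upstream at chr2:148048581-148048740, with 1.39 in replicate 1 and 4.19 in replicate 2. Among shared distal peaks the Foxe1 peak was at the 90.4th percentile in replicate 1 and the 95.2nd in replicate 2. The Foxn1 peak was at the 74.0th in replicate 1 and the 90.7th in replicate 2. A nearest gene need not be the gene a distal region acts on.

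**Figure D4:**
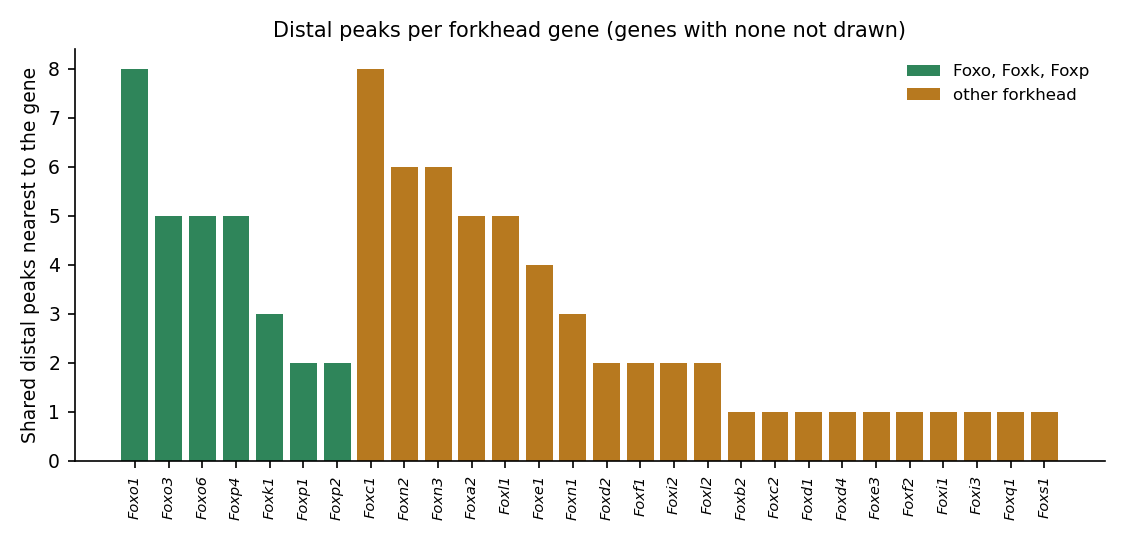
Number of distal peaks shared by both libraries and nearest to each forkhead gene (vertical axis), for 28 of the 29 genes with at least 1. Foxo1 and Foxc1 have 8 each, and the 7 Foxo, Foxk and Foxp genes shown hold 30 of the 86.

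The tallest distal peaks of the family were at Foxc2 and Foxk1, whose sequences are printed above. The Foxc2 peak at chr8:121113401-121113620, 2.66 kb from the TSS, had 3.20 in replicate 1 and 9.16 in replicate 2, at the 98.9th and 99.3rd percentiles. It was stronger than the Foxc2 TSS peak in both libraries. The letters AAGATGGC, a YY1 core, lay in it with all 8 bases inside a footprint in both libraries. They were in 2 of 86 distal peaks of forkhead genes (Foxc2 and Foxd2), 2.33%, against 1.73% of all shared distal peaks.

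The Foxk1 peak at chr5:142367341-142367580, 34.0 kb upstream, had 4.83 in replicate 1 and 8.66 in replicate 2, at the 99.8th and 99.1st percentiles. The letters GCGCATGCGC, an NRF1 site, lay in it with all 10 bases inside a footprint in both libraries. They were in 1 of 86 distal peaks of forkhead genes, 1.16%, against 0.170% of all shared distal peaks. Both peaks hold many CG dinucleotides, 16 in the Foxc2 run and 27 in the Foxk1 run, and no annotated TSS lies within 1 kb of either.

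Forkhead genes occur in clusters, defined here as members whose 5′ ends lie within 500 kb of each other. On chromosome 8, Foxf1, Foxc2 and Foxl1 span 43.6 kb. Foxf1 and Foxc2 were open, and Foxl1 had no TSS peak. These genes were nearest to 8 distal peaks, most of them outside that span and as far as 180 kb from the nearest TSS. The 2 tallest peaks within the span were not at forkhead promoters. One was the distal Foxc2 peak, and the other, with 3.88 in replicate 1 and 8.77 in replicate 2, lay 24.0 kb from the Foxf1 5′ end at the start of the unrelated gene Mthfsd.

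On chromosome 13, Foxq1, Foxf2 and Foxc1 span 250.5 kb. Foxc1 alone was open in both libraries, Foxf2 had a weak TSS peak in replicate 2 and Foxq1 had none. The 10 distal peaks nearest to genes of that cluster were 8 at Foxc1 and 1 at each of the others. On chromosome 4, Foxd2 and Foxe3 lie 17.1 kb apart, and both were counted open, Foxe3 weakly. Members of a cluster thus differed in opening although they share a neighbourhood.

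**Figure D5:**
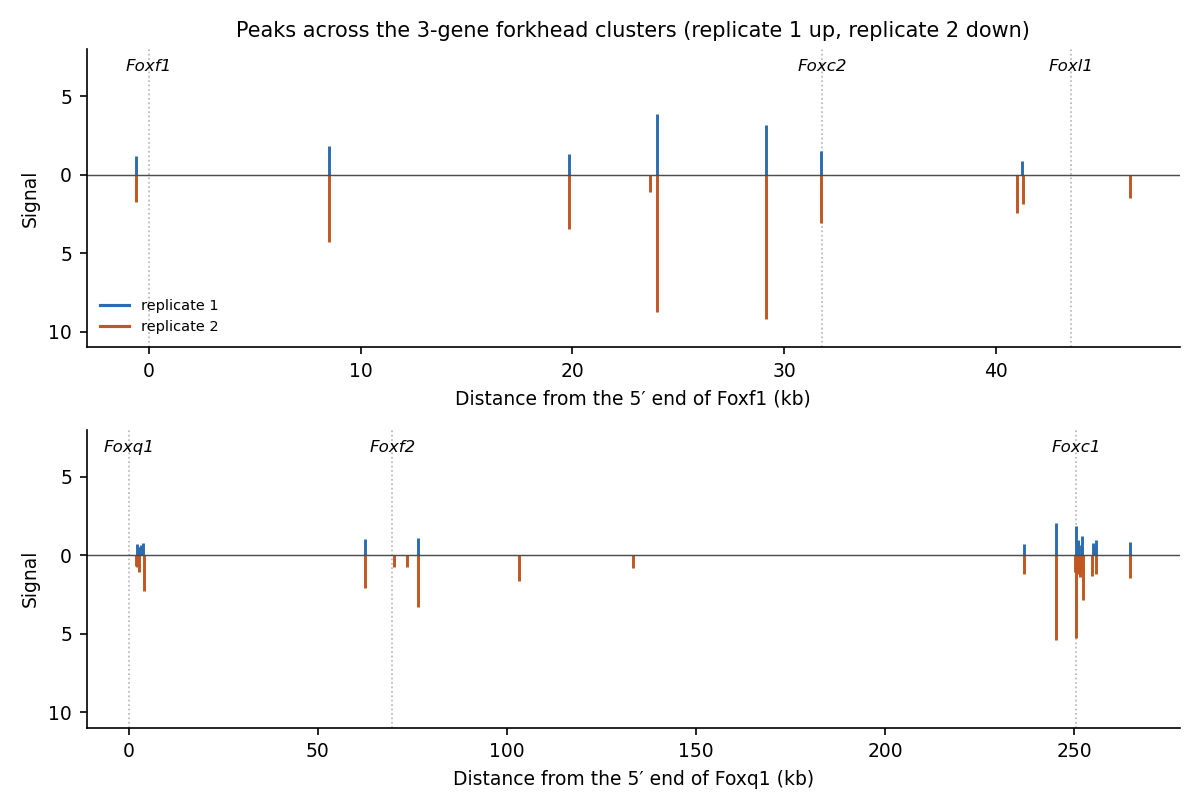
Deposited signal (vertical axis, the authors' scale; replicate 1 upward, replicate 2 downward) of every peak along the 3-gene forkhead clusters, against the distance in kb from the 5′ end of the first gene; dotted lines mark 5′ ends. In the Foxf1, Foxc2, Foxl1 cluster the tallest peaks, up to 9.16 in replicate 2, lie between Foxf1 and Foxc2 and not at the dotted lines.

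Genes that act upstream, beside or downstream of forkhead factors were mostly open. Of 24 genes of insulin and stress signalling to FoxO, all 24 were open, against 61.3% of all protein-coding genes. The highest was Mdm2, a ubiquitin ligase, with 4.48 in replicate 1 and 11.8 in replicate 2. It was followed by the kinase genes Pik3cb (4.13 in replicate 1, 10.5 in replicate 2) and Mapk8 (4.10 in replicate 1, 9.88 in replicate 2). The median percentiles of the 24 were 75.8 in replicate 1 and 71.5 in replicate 2.

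All 15 partners and co-regulators were open, against 61.3% of all protein-coding genes. They were led by Smad4 (4.21 in replicate 1, 8.88 in replicate 2), the TGF-beta mediator that FoxO and FoxH1 bind. Chd4, a chromatin remodeller, had 3.85 in replicate 1 and 8.92 in replicate 2, and Hdac1, a histone deacetylase, had 3.78 in replicate 1 and 8.19 in replicate 2. These 2 lists hold mainly genes that most cells use.

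Of 18 textbook FoxO targets, 14 were open, or 77.8%, against 61.3% of all protein-coding genes. Txnip, the thioredoxin inhibitor that limits glucose uptake, had 6.71 in replicate 1 and 14.8 in replicate 2, at a mean percentile of 99.8. Sod2, the mitochondrial superoxide dismutase, had 4.95 in replicate 1 and 11.8 in replicate 2. Bcl2l11, which encodes the cell death protein BIM, had 3.62 in replicate 1 and 8.09 in replicate 2. The 4 without a TSS peak in either library were G6pc, Igfbp1 and Pck1, which act mainly in liver, and Trim63, which encodes a muscle ligase of protein breakdown. Fbxo32, which encodes another muscle ligase, was open, with 1.47 in replicate 1 and 3.31 in replicate 2. Trim63 and Fbxo32 were chosen after their values were seen.

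All 9 textbook FoxM1 targets were open, against 61.3% of all protein-coding genes. All but Cdc25b had a CpG ratio of at least 0.6, and 94.0% of all protein-coding genes with such a ratio were open. Birc5 was highest, at 3.61 in replicate 1 and 8.54 in replicate 2. Cenpf had 3.31 in replicate 1 and 7.24 in replicate 2, and Ccnb1 had 2.72 in replicate 1 and 6.50 in replicate 2. The list median lay at the 39.4th percentile in replicate 1 and the 44.5th in replicate 2. These mitotic genes had lower peaks than the FoxO signalling list in both libraries, and Foxm1 itself was at the 61.5th percentile in replicate 1 and the 41.4th in replicate 2.

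The tissue label was checked with marker genes. Of 5 cortex markers, 4 were open in both libraries, Scarb1, Nr5a1, Cyp11a1 and Nr0b1, and Star had a peak in replicate 2 alone. Of 5 medulla markers, 2 were open in both libraries, Chgb and Chga, and Th and Dbh had no TSS peak. For the surroundings, 2 of 4 kidney markers had weak peaks (Lrp2 and Pax8, both at or below 0.730), and 0 of 3 liver markers were open in both libraries. The part of each cell type in the forkhead peaks was not tested.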

How the data were processed

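Each library came with 2 peak lists, a footprint list and a list of false discovery rates on assembly mm10, per the labels. The signal in the peak lists is the authors' own value per peak, and the deposited false discovery rates are adjusted p-values for the rate of cuts at each position. The deposited footprint lists carry 1 value, 0.01, throughout, read here as a threshold on p-values. The sources used here do not give tools, read depth, filters or the scaling of signal, so counting error could not be computed.

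Positions were set against GRCm38.p6 and GENCODE M21 with Python 3.11.15, numpy 2.4.6, pandas 2.3.3 and pysam 0.24.0. The reference is a C57BL/6J sequence, and alleles were not separated. Peaks were matched by an overlap of at least 1 bp. Shared peaks are replicate 2 peaks overlapped by a replicate 1 peak. The overlap code was checked on simulated intervals.

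Members, lists and markers were chosen with earlier results of these data known. Every open member is given with values, as is each member with a TSS peak in 1 library, and those with 3 or more distal peaks are named with their counts. Of each pathway list the 3 highest by mean percentile and up to 3 without a peak are named; Trim63, Fbxo32 and further markers were named after their values were seen. 1 further gene of this name form is not analysed here, and 1 member that enters the counts is not reported by name. Sequences are from RefSeq's GRCm38.p6 assembly, and 16 members were not matched in its promoter table. With 1 group and n = 2, values are given per library and no test was made. The alternatives tried were the shorter lists, other TSS windows, the 5′ end alone, stricter overlap, a peak in either library, equal peak numbers, peaks near another gene left out, a grouping by textbook breadth, distal limits, and each library left out.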

Additional observations from a re-analysis of the deposited data

How the results depend on the processing

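The count of open forkhead genes was 24 and ran between 20 and 33 under the alternatives tried. All 10 Foxo, Foxk and Foxp genes were counted open, except Foxo4 when the peaks of the libraries had to overlap by 50% of each, and Foxp3 when peaks near another gene were not counted. The other forkhead genes numbered 14, against 23 with a peak in either library, and 15 to 22 with 1 library left out. Without replicate 1 the count was 22, or 66.7% against 66.3% of all protein-coding genes, so the lower share of open genes outside Foxo, Foxk and Foxp was not seen in replicate 2 alone. Without replicate 2 it was 15, or 45.5% against 62.2%. With as many peaks in replicate 2 as in replicate 1, taken by signal, it was 14, or 42.4% against 58.6%. The 86 distal peaks became 37 with the shorter lists and 55 within 50 kb of the TSS, and 109 to 192 with 1 library left out. Per gene the mean stayed above that of all protein-coding genes in each of these (0.860 against 0.396, 1.28 against 0.599, 2.53 against 0.982 and 4.47 against 2.51). The mean TSS signal of Foxn3 was 1.69 at the 5′ end alone, and in a window of 500 bp those of Foxn3, Foxo3 and Foxp3 were 2.96, 2.41 and 1.27, against 8.14, 4.09 and 2.47 in the window of 1 kb. No paired analysis was possible because there is 1 group and no test. The unknown read depth limits what the weak peaks of replicate 2 can show.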
